A study of Rattus norvegicus with 6 samples.

Results

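The rat gene given in the deposited tables as ENSRNOG00000003738 was the host of 7 of the 2228 circular RNAs (circRNAs) found in the pineal gland of 6 rats. All 7 lie on the plus strand of chromosome 13, between 106859710 and 107343738, a stretch of 484 kb. The gene was selected on the listed back-splice reads of its circRNAs in the main tables, the first of the deposited kinds of file, which were far more numerous in rats C04–C06 than in rats C01–C03. That difference is therefore described here without a test. The 7 members are all entries that those tables give to this gene. The files pair its identifier with no symbol, so the protein it may encode, its sequence and its function are not described here.

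A circRNA forms when the splicing machinery joins the end of an exon to the start of an exon that lies before it in the transcript. The loop has no free ends and is protected from the enzymes that degrade RNA from an end, and it is recognised by reads across the joining point, the back-splice junction. The same gene also makes linear RNA from the same exons, so a circRNA can be described by its own reads, by the linear reads at its ends, and by the circular share of both. The pineal gland is the brain gland that secretes melatonin at night.

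The glands came from 8-week-old rats, each giving 1 library of total RNA, in 2 groups of 3. The question of the study was how circRNAs differ by day and by night, but the labels disagree on which rats were which. Titles and time tags place C01, C02 and C03 at night (4:00) and C04, C05 and C06 in the day (16:00). The treatment protocol instead puts C01–C03 in sunlight at 16 to 17 hours and C04–C06 in darkness with red light at 4 to 5 hours. Groups are therefore called by rat number, and nothing is assigned to day or night. No strain, sex or drug other than the anaesthetic is named, and the tissue could not be checked against pineal markers because no host identifier was paired with a symbol.

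The main tables, laid out in the columns that the caller CIRI writes, held 15506 to 22265 back-splice reads per library. The lists of a second caller, laid out like the output of find_circ, held 17641 to 30119. Every main-table entry had at least 2 back-splice reads and a circular share of at least 9.091%, the smallest found in any listing. That share corresponds to 20 linear reads for each back-splice read. Whether the caller set these values as limits is not stated. A missing entry can be read neither as a measured 0 nor as reads below a limit, and the circRNA is called not listed.

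The 7 circRNAs are numbered here in order of position. CircRNA 1 (chr13:106859710-106862333) spans 2624 bases and circRNA 2 (chr13:106893746-106944389) spans 50644. CircRNA 3 (chr13:107099509-107151511) and circRNA 4 (chr13:107099509-107157558) have the same start and span 52003 and 58050 bases. CircRNA 5 (chr13:107252004-107254567) spans 2564 bases. CircRNA 6 (chr13:107310007-107333625) and circRNA 7 (chr13:107310007-107343738) also have a common start and span 23619 and 33732 bases. The main tables class 6 of them as exonic and circRNA 4 as intronic. Members that share a start share that splice site, so they are not independent measurements.

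The members differed widely in how large a loop the authors' deposited table implies. That table gives values in TPM, a unit that divides reads by a length before scaling to a common total, and the length could be recovered from the values. It came to 327 bases for circRNA 1, 1800 for circRNA 2, 975 for circRNA 3, 368 for circRNA 5, 769 for circRNA 6 and 1124 for circRNA 7, or 1.875% to 14.35% of the genomic span. For the intronic circRNA 4 the full span of 58050 bases was used. As a result the authors' TPM of circRNA 4 was only 6.881 to 8.463 where it was above 0, against 584.3 to 15881.8 for the 6 exonic members.

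CircRNA 1 was the most abundant member. The main tables gave it 97, 101 and 81 back-splice reads in C04, C05 and C06 and did not list it in C01, C02 or C03. The second caller had reads at the same ends in every gland, with 97, 72 and 70 in C01–C03 and 52, 100 and 69 in C04–C06. The groups overlapped. C04, which the main table listed with 97 reads, had the fewest here in the library with the fewest reads of all, and after scaling for depth C03 was the lowest. In whole glands, fewer cells of a type and less RNA per cell cannot be told apart. Scaled to 1000000 back-splice reads of the library (CPM), the second caller's level was 3280 ± 561.8 in C01–C03 and 3237 ± 258.2 in C04–C06 (SD, n = 3 each). The log2 difference of C01–C03 minus C04–C06 was 0.05 (SE 0.209, 95% interval -0.37 to 0.47), from a fit across all 2208 circRNAs of the second caller.

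CircRNA 2 showed the same kind of listing. The main tables gave 32, 50 and 49 reads in C04, C05 and C06 and no entry in C01–C03. The second caller gave 80, 35 and 34 reads in C01–C03 and 25, 52 and 31 in C04–C06, so that C01 was the highest of all 6. After scaling for depth, circRNA 2 lay at 3211 CPM in C01 and at 1355 to 1726 CPM in the other 5. Its level was 2034 ± 1024 CPM in C01–C03 and 1564 ± 155.3 in C04–C06 (SD, n = 3 each), with a log2 difference of 0.40 (SE 0.2848, 95% interval -0.17 to 0.98). It moved with the rat left out, to -0.09 without C01 (95% interval -0.73 to 0.55), 0.58 without C02 (-0.004772 to 1.169) and 0.63 without C03 (0.03 to 1.23).

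CircRNA 3 was listed in both groups, although in 1 gland only among the first 3 rats. Its back-splice reads in the main tables were 27 in C02 and 27, 35 and 31 in C04, C05 and C06. The second caller gave 40, 35 and 21 reads in C01–C03 and 22, 49 and 24 in C04–C06, overlapping over nearly the whole range. The levels of 1326 ± 424.7 and 1357 ± 234.8 CPM (SD, n = 3 each) differed by -0.03 on the log2 scale (SE 0.3013, 95% interval -0.64 to 0.58).

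CircRNA 7, the last member along the chromosome, was the most evenly listed. The main tables gave it 33 reads in C01 and 31 in C03, did not list it in C02, and gave 30, 25 and 25 in C04, C05 and C06. The second caller gave 20, 7 and 20 reads in C01–C03 and 7, 17 and 17 in C04–C06. Both groups thus held 1 gland at 7 reads, C02 and C04, and glands at 17 to 20. The log2 difference was 0.12 (SE 0.4642, 95% interval -0.82 to 1.06).

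The other 3 members had few reads. The intronic circRNA 4 was listed with 11 reads in C04 and 11 in C05, circRNA 5 with 10 in C04, and circRNA 6 with 12 in C05. The second caller gave circRNA 4 between 2 and 9 reads in every gland, circRNA 5 up to 8 and circRNA 6 up to 10. It listed no read of circRNA 5 in C02 or of circRNA 6 in C04, and a list that starts at 2 reads cannot tell 1 read from 0. Their log2 differences were 0.84, 0.27 and 1.02, with SE of 0.9776, 1.088 and 1.014 and 95% intervals from -1.14 to 2.82, -1.93 to 2.48 and -1.04 to 3.08. Intervals of this width leave any direction undetectable at this depth.

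**Figure D1:**
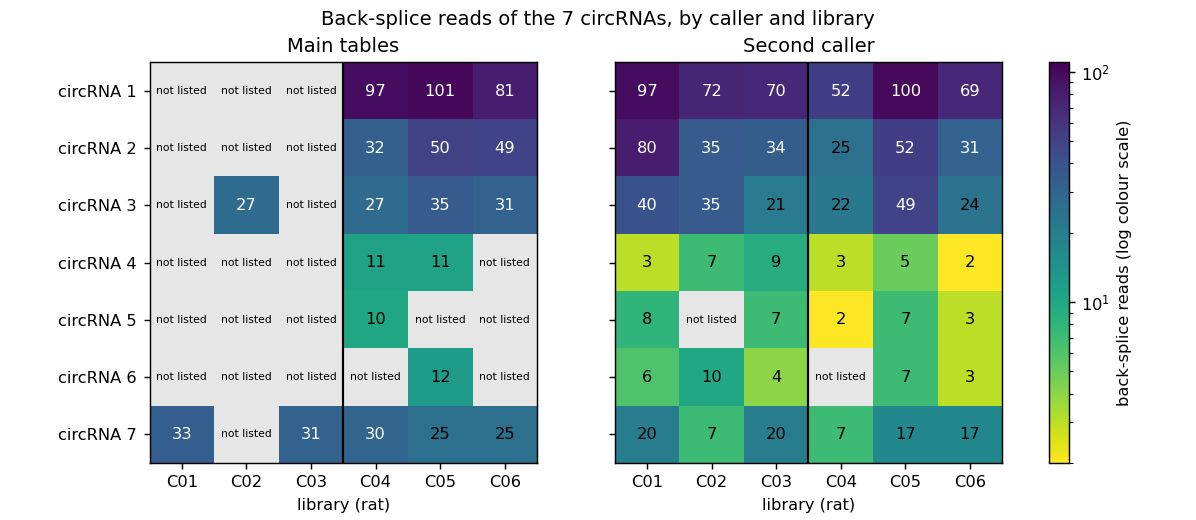
Back-splice reads of the 7 circRNAs (rows) in each of the 6 libraries (columns), on a log colour scale, in the main tables on the left and by the second caller on the right; grey cells were not listed and the black line parts C01–C03 from C04–C06. On the left 3 of 21 cells are filled in C01–C03 and 16 of 21 in C04–C06, whereas on the right only 2 cells are grey, 1 in each group.

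Of the 42 pairs of a circRNA and a library, the main tables listed 19, and the second caller had reads at all 19. Of the 23 pairs not listed, the second caller had reads at 21, or 91.3%, and in C01–C03 this held for 17 of 18. Over all 1413 circRNAs that both callers found in at least 1 library, the second caller had reads at 33.7% of the pairs that the main tables did not list. That share covers circRNAs of any abundance and was not matched to the reads of the members. Only C04–C06 had a listing for 5 members (circRNAs 1, 2, 4, 5 and 6), both groups had one for 2, and no member was listed in all 6 libraries.

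Members 1 and 2 were listed in all of C04–C06 and in none of C01–C03, a pattern that 4.53% of 772 circRNAs shared (those with 2 reads or more in 3 libraries or more). This count belongs to the contrast that chose the gene. For 12 of the 35 circRNAs with that pattern, or 34.3%, the second caller had reads in all of C01–C03, and circRNAs 1 and 2 were among these 12. Of the 7 members 4 passed this filter in the main tables and 2 did not overlap between groups, where the share with C04–C06 higher over all 772 was 10.2% and the share with C01–C03 higher was 7.64%. These 2 were circRNAs 1 and 2, which passed the filter through C04–C06 alone. With entries not listed counted as no reads, their lack of overlap was fixed in advance and is no result. By the second caller 7 of 7 passed the same filter and 0 did not overlap, where 11.1% of 2208 circRNAs did not overlap in either direction.

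Summed over the host, the main tables held 33, 27 and 31 back-splice reads in C01, C02 and C03 and 207, 234 and 186 in C04, C05 and C06. In CPM these were 1698 ± 114.4 and 10019.1 ± 486 (SD, n = 3 each), and no gland of one group came near the other. A circRNA that was not listed adds no reads to these sums, so they are not measured levels of all 7 members. Among 473 host genes, 11.2% did not overlap with C04–C06 higher. The second caller's reads at the same 7 junctions were 254, 166 and 165 in C01–C03 and 111, 237 and 149 in C04–C06. In CPM this was 8017 ± 1919 against 7199 ± 814.6 (SD, n = 3 each), with the groups overlapping. C01, at 10195.9, was the highest gland and C04, at 6292, the lowest. The log2 difference of the host was 0.19 (SE 0.1777, 95% interval -0.17 to 0.55), in a fit across 548 host genes. It was -0.05 without C01, 0.34 without C03, 0.11 without C04 and 0.30 without C05.

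**Figure D2:**
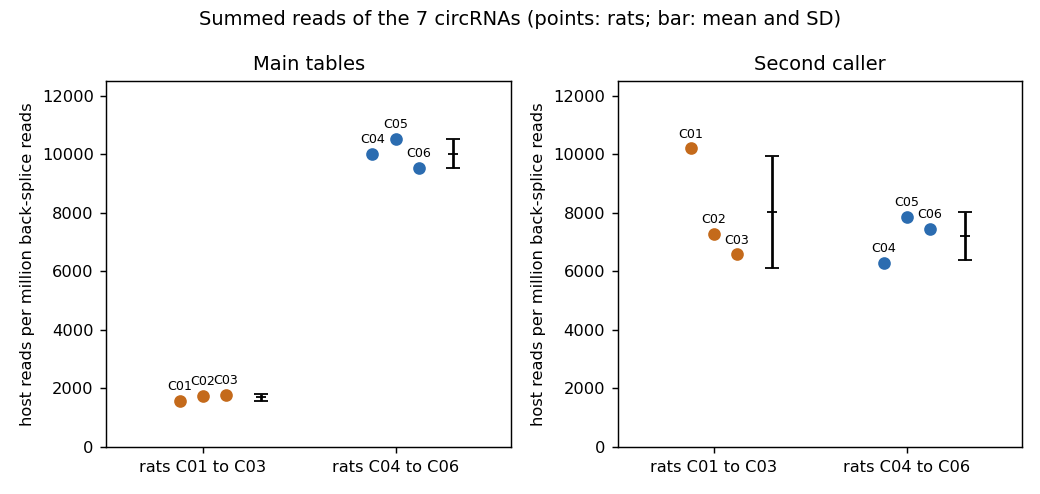
Reads of the 7 circRNAs summed per library and scaled to 1000000 back-splice reads (vertical axis), in the main tables on the left and by the second caller on the right; points are rats and bars are the mean with SD of 3 rats. In the main tables the groups lie at 1698 ± 114.4 and 10019.1 ± 486, and by the second caller they overlap at 8017 ± 1919 and 7199 ± 814.6. A circRNA that was not listed adds no reads to the sums.

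The authors' TPM followed the main tables, since a value above 0 was found only at pairs that the main table and the second caller both listed. Summed over the host it was 1423, 2375 and 1472 in C01–C03 and 20977.5, 20358.4 and 19618.6 in C04–C06. CircRNA 1 alone had 15101.8 to 15881.8 TPM in C04–C06. In C01–C03 the sum rested on a single circRNA in each gland, which was circRNA 7 in C01 and C03 and circRNA 3 in C02.

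Linear reads at the ends were measured only where a circRNA was listed. CircRNA 7 could be compared in both groups and had 522 and 424 linear reads in C01 and C03 against 226, 171 and 197 in C04, C05 and C06. Per 100000 linear reads at the circRNAs listed in every library, this was 763.6 ± 14.81 (SD, n = 2) against 343.3 ± 61.7 (SD, n = 3), and the groups did not overlap. Of the 273 circRNAs listed in all 6 libraries, 23.1% had linear reads that did not overlap with C01–C03 higher. CircRNA 7 is not one of them, and 2 libraries separate from 3 more easily than 3 from 3. Its back-splice reads, at 33 and 31 against 30, 25 and 25, lay much closer together. The circular share of circRNA 7 was 11.22% and 12.76% in C01 and C03 and 20.98%, 22.62% and 20.24% in C04, C05 and C06. As means this was 11.99% ± 1.084 (SD, n = 2) and 21.28% ± 1.219 (SD, n = 3). Over the 273 circRNAs, 22.0% had shares that did not overlap in this direction, again with 3 libraries in each group.

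CircRNA 3 had the same order. Its 526 linear reads in C02 stood above 258, 302 and 281 in C04, C05 and C06, and its circular share of 9.31% in C02 stood below 17.31%, 18.82% and 18.08%. The value in C02 has no replicate within its group and lies just inside the smallest share that any listing reached. The other entries close to that limit were circRNA 5 in C04 at 9.39%, circRNA 6 in C05 at 9.756% and circRNA 2 in C04 at 9.953%. CircRNA 1 was the farthest from it, with 665, 675 and 633 linear reads and shares of 22.58%, 23.03% and 20.38% in C04, C05 and C06.

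For the pairs that were not listed no linear reads are given. If 20 linear reads for each back-splice read, the most in any listing, were a limit, it could be worked out from the second caller's reads. This limit was worked out for the 17 pairs that the second caller found in C01–C03 and the main tables did not list. At circRNA 1 it comes to 1940, 1440 and 1400 linear reads in C01, C02 and C03, where 633 to 675 were measured in the other group. It comes to 1600, 700 and 680 at circRNA 2, where 513 to 579 were measured, and to 800 in C01 and 420 in C03 at circRNA 3, where 258 to 302 were measured. At the members with few reads it is low. The limit for circRNA 4 is 60, 140 and 180 (163 and 164 measured), for circRNA 5 it is 160 in C01 and 140 in C03 (193 measured), and for circRNA 6 it is 120, 200 and 80 (222 measured). At circRNA 7 in C02 it is 140, where 171 to 226 were measured. In all, the limit lay above the linear reads measured in C04–C06 at 9 of the 17 pairs and below them at 8. The ratio of 20 was found with the main tables' own back-splice reads, from which the second caller's reads differ. Some listed entries also exceed a limit worked out this way. CircRNA 7 in C01 had 522 linear reads with 20 second-caller reads, and circRNA 5 in C04 had 193 with 2. The count of pairs therefore cannot tell why an entry is missing. Only circRNA 3 in C02 and circRNA 7 in C01 and C03 have linear reads in that group. These were higher than at the same circRNAs in C04–C06, and any part of linear reads in the missing entries was not tested.

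**Figure D3:**
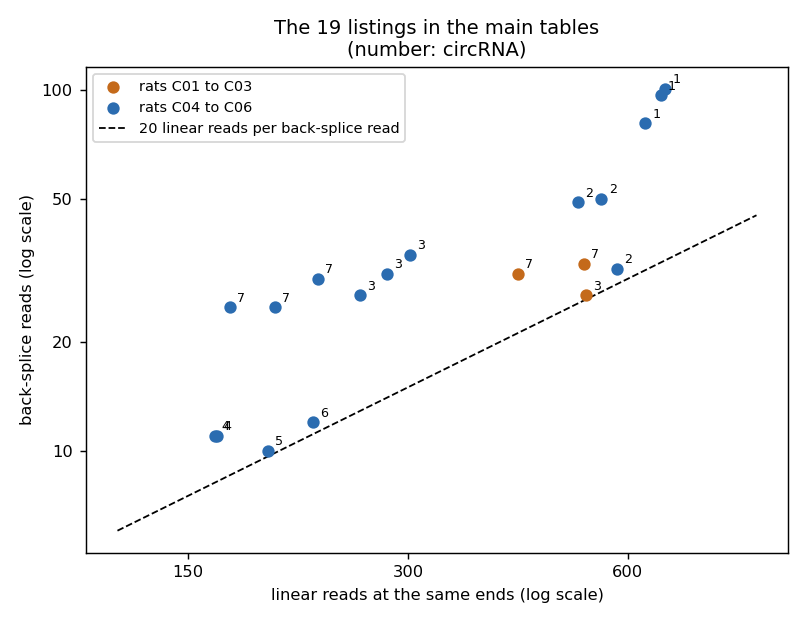
Back-splice reads (vertical, log scale) against linear reads at the same ends (horizontal, log scale) for the 19 listings of the host's circRNAs in the main tables; each point is a circRNA in a library, numbered by circRNA and coloured by group, and the dashed line marks 20 linear reads per back-splice read. All points lie on or above the line, and the 3 points of C01–C03 (circRNA 7 in C01 and C03, circRNA 3 in C02) lie at 424 to 526 linear reads, to the right of the same circRNAs in C04–C06.

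The host's circular share was also set beside that of its libraries, as a description with no test, because the members that enter it depend on the listing that chose the gene. In C01, C02 and C03 it rests on a single circRNA (7, 3 and 7), and in C04–C06 on 4 to 6. Over the listed circRNAs, the share of summed reads was 11.22%, 9.31% and 12.76% in C01–C03 and 16.57%, 18.32% and 18.64% in C04–C06. The median over all circRNAs of the same libraries ran from 17.28% to 18.32%. The host minus this median was -8.053 to -4.89 points in C01–C03, and C04–C06 lay on both sides of their medians, from -1.748 to 0.4555 points. The share of summed reads over all circRNAs ran from 23.99% to 24.57%, above the host's share in each of the 6 libraries. The mean difference over the 6 libraries was -3.324 ± 3.536 points against the median and -9.875 ± 3.96 against the summed share (SD, n = 6), so its size depends on the reference.

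The second caller showed many more junctions in the same stretch of the chromosome. Inside the interval it listed 67 candidates with 1991 reads, and 60 of these candidates were not among the 7 members. On the plus strand, that of the host, there were 64, and the 3 on the minus strand had 8 reads in all, each in 1 library. Candidates were taken by position, since the list names no gene. Reads inside the interval numbered 418, 321 and 340 in C01–C03 and 225, 417 and 270 in C04–C06. Scaled for depth they came to 14802.7 ± 1731 and 13358.2 ± 554.7 CPM (SD, n = 3 each). C01 was again the highest gland, at 16779.1 CPM, and the other 5 lay between 12754.4 and 14074.6. Candidates per library numbered 30 to 37, and the 7 members took 48.53% to 60.77% of the reads.

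Candidates were built from few starts. The 64 plus-strand candidates used 27 starts and 31 ends, and 15 starts and 15 ends were each used by at least 2 candidates. The 5 starts of the 7 members carried 82.65% of the plus-strand reads. The first start, at 106859710, served 9 candidates with 735 reads, or 37.07%. The start of circRNA 2, at 106893746, served 5 with 384 reads (19.36%), and that of circRNAs 3 and 4, at 107099509, served 6 with 358 reads (18.05%). The start of circRNAs 6 and 7, at 107310007, served 3 candidates with 126 reads (6.354%).

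Ends were used less unevenly. The end of circRNA 1, at 106862333, was joined within the interval to 1 start and had 460 reads, while the end of circRNA 2, at 106944389, was joined to 8 starts with 381 reads. An end at 106930882 that no member uses was joined to 7 starts with 263 reads. Of the 57 plus-strand candidates outside the main tables, 30 shared a start or an end with a member. Starts and ends were also paired where the end lay at most 1000 bases on from the start, counting both, a window that bounds the distances found. In 9 cases a start and an end of different candidates, which as a pair are no candidate themselves, faced each other across 131 to 913 bases, with a median of 169. For example, 184 bases separate the start of circRNA 2 at 106893746 from the candidate end at 106893929, counting both, and 169 bases lie from a start at 107254399 to the end of circRNA 5 at 107254567.

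**Figure D4:**
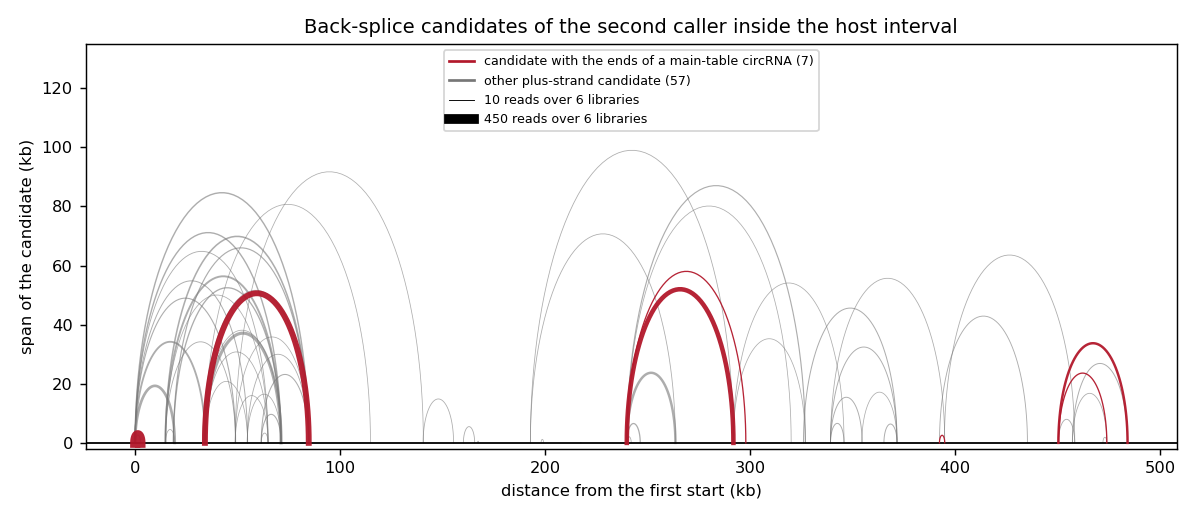
Plus-strand candidates of the second caller inside the host interval, each drawn as an arc from its start to its end (horizontal axis, kb from the first start) with its height equal to its span in kb (vertical axis) and its width growing with its reads over 6 libraries. The 7 candidates with the ends of a main-table circRNA are red and the other 57 grey, and arcs gather at a few starts, the first of which serves 9 candidates.

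Outside the 7 members, 5 candidates had the most reads, and each was present in every gland. Chr13:106893746-106930882 had 23, 20 and 31 reads in C01–C03 and 15, 23 and 8 in C04–C06. It has the start of circRNA 2 and a nearer end. Chr13:106859710-106879018, which has the start of circRNA 1, had 16, 23 and 18 against 13, 9 and 18. Chr13:107099509-107123229, with the start of circRNAs 3 and 4, had 10, 21 and 18 against 9, 22 and 8. Chr13:106874495-106930882 had 15, 14 and 6 against 5, 9 and 10, and chr13:106859710-106893929 had 11, 9 and 13 against 2, 11 and 10.

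In all, 14 of the 67 candidates were present in all 6 libraries, of which 5 were members and 9 were not. In 1 library only there were 29. The spans ran from 169 to 99032 bases with a median of 30794. Of the 30 candidates that passed the filter, 2 did not overlap between groups in CPM, where the share over all 2208 was 11.1%. They were chr13:106893746-106930882, at 1012 ± 195.2 CPM in C01–C03 and 671.1 ± 239.3 in C04–C06, and chr13:106859710-106908700, at 203.8 ± 73.81 and 59.93 ± 56.96 (SD, n = 3 each). The latter had 5, 3 and 7 reads against 2, 2 and none listed, and was named after its values were seen.

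A second end close to that of circRNA 1 was also present. The candidate chr13:106859710-106862352 ends 19 bases farther on and had 3, 3 and 2 reads in C01–C03 and 2, 2 and 5 in C04–C06. Over the 6 libraries it had 17 reads against 460 at the end of circRNA 1.

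The second caller counted 61.83% of the members' reads as distinct, against 61.8% over all its candidates. In the main tables, counting reads placed near each other on the sequencing tile once left 77.78% to 92.59% of the host's reads per library and 79.55% to 82.56% of all reads. No read name appeared at more than 1 of the host's circRNAs. At circRNAs listed by both callers in a library, the second caller had 0.5362 to 1.296 times the reads of the main table for this host and 0.4517 to 0.7737 times for all circRNAs together.

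Among 1052 host genes the host ranked at 13 by back-splice reads in the main tables, with 0.6171% of all reads. With 7 circRNAs it tied with 1 other gene. It was set beside the 21 other host genes with at least 5 circRNAs. The main tables listed 14.29% of its pairs in C01–C03 and 76.19% in C04–C06. The other 21 hosts ran from 11.11% to 80% in C01–C03 and from 26.67% to 90.91% in C04–C06, and together had 166 and 211 listed pairs. Over all genes the main tables listed 874, 795 and 825 circRNAs in C01–C03 and 948, 986 and 946 in C04–C06, so C04–C06 had more listings in general. The log2 ratio of mean CPM of the chromosome 13 host was -2.56 in the main tables and 0.16 by the second caller. The other 21 ran from -2.37 to 1.47 with a median of 0.01 and from -2.30 to 2.59 with a median of 0.00. ENSRNOG00000017940 on chromosome 5, which has the most circRNAs with 11, was listed in 75.76% and 90.91% of its pairs. Other hosts also had few listings in C01–C03, as ENSRNOG00000013202 with 11.11% and 50% and ENSRNOG00000019319 with 13.33% and 40%. ENSRNOG00000039717 had the opposite order, with 46.67% and 26.67%. The chromosome 13 host was picked for this contrast, so its place at the end of the main-table range of log2 ratios is a description.

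The 5 host genes whose main-table reads were most like this host across the 6 libraries had Pearson's r of 0.9984 to 0.9989 on log2(CPM + 1), and 24 hosts were above 0.9. With 6 libraries in 2 groups, such values come about wherever a host is listed mainly in C04–C06, and the points share the depth of each library. None of the 5 was listed in C01–C03, unlike the chromosome 13 host, which had 27 to 33 reads there. ENSRNOG00000036658 (chromosome 10) had 46, 60 and 40 reads in C04–C06, and the second caller had none at the same ends in any gland. ENSRNOG00000011931 (chromosome 1) had 182, 182 and 169 reads, and the second caller gave 143, 130 and 124 in C01–C03 and 98, 162 and 124 in C04–C06. ENSRNOG00000026828 (chromosome 14) had 5, 7 and 4 reads and ENSRNOG00000023589 (chromosome 3) had 14, 20 and 13, with second-caller reads in every gland for both. ENSRNOG00000042668 (chromosome 7) had 5, 8 and 5 reads, and the second caller found it in C03, C05 and C06.

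The main tables had 4 other circRNAs within 1 megabase of the host interval, from 2 host genes. The nearest, exonic chr13:106507146-106507561 of ENSRNOG00000002593, lies 352.1 kb away. It was listed with 15 reads in C05 and 11 in C06 only, while the second caller gave 13, 10 and 16 reads in C01–C03 and 6, 15 and 11 in C04–C06. The other 3 belong to ENSRNOG00000002653, which begins its first circRNA 389.6 kb past the interval, and were listed with 2 to 11 reads in 1 to 4 libraries each.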

How the data were processed

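For each library the authors deposited a main table, whose column names are those of CIRI, with counts of back-splice and linear reads and the circular fraction of reads, given here as a percentage (2 times the back-splice reads over that number plus the linear reads, checked in the values). They also deposited per-library candidate lists in find_circ format with read counts, and circRNA values in TPM for the series. Not given in the sources used here: aligner, caller versions, settings. DESeq and the mouse build mm9 stand in the submitters' processing notes, although identifiers are those of rat, so the build is uncertain; coordinates are as deposited, from 1, with second-caller starts raised by 1.

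Entries of ENSRNOG00000003738 were joined by position. In sums, filters, comparisons between groups and correlations, an entry that was not listed was counted as no reads. CPM is reads per 1000000 back-splice reads of the library. Unless stated otherwise, host sums of the second caller hold only candidates with exactly the ends of a main-table circRNA given to 1 host gene. The second caller's counts were fitted with edgeR 4.0.16 (quasi-likelihood, TMM, at least 2 reads in at least 3 libraries; R 4.3.3), for circRNAs and for host sums, and checked on simulated counts; estimates carry no p-value. A planned sign-flip test of the host's circular share is not used, since its members depend on the listing that chose the gene. Alternatives used DESeq2 1.42.0 and limma 3.58.1; TPM was log2 transformed after adding 0.76.

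All 7 circRNAs are named, with the 5 strongest other candidates inside the interval, the 5 host genes most alike and circRNAs within 1 megabase. The gene, members and lists were chosen with earlier results of these data known. Labels do not give batches; every library was read on 1 flow-cell lane. Rats are separate animals, and no library pair agreed within counting noise (smallest chi-square per degree of freedom 1.393, largest p 1.9e-05).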

Additional observations from a re-analysis of the deposited data

Results flagged for a closer look

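Junctions that join a point inside the host interval to one outside it belong to no comparison above. The second caller listed 9 such candidates, with 23, 12 and 17 reads in C01, C02 and C03 and 16, 18 and 6 in C04, C05 and C06. These are sums over candidates that the list holds only from 2 reads up, and they were not tested against a background level. The leading candidate, chr13:106833769-106862333, ends where circRNA 1 ends and begins before it, and had 21, 5 and 5 reads in C01–C03 and 3, 13 and 6 in C04–C06.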

How the results depend on the processing

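The host's log2 difference by the second caller (0.19) ranged from 0.14 to 0.21 under other normalizations, filters, tools and sets of junctions and with distinct reads only, the last chosen after seeing the data, and from -0.05 (without C01) to 0.34 (without C03) when 1 rat was left out. With the authors' TPM it was -3.57 (SE 0.2412), a table with values only where the main tables list the circRNA. For single circRNAs, all values stayed within 1 SD of the spread between rats except circRNA 2 without C01 (-0.09) and circRNA 6 without C05 (1.86). Main-table CPM was 1655 to 1790 in C01–C03 and 9774 to 10259.7 in C04–C06 over 7 alternatives each, including reads near each other on a tile counted once, chosen after seeing the data. The host's circular share minus the library median was -3.324 points; with the share of summed reads as reference it was -9.875, with medians over the host's circRNAs -3.774, and without 1 rat -4.08 to -2.378, and the cause was not tested. No paired analysis was possible because the labels pair no rat of 1 group with a rat of the other. Members 4 to 6 had at most 12 reads in any library by either caller, which limits their precision.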
